A study of Arabidopsis thaliana with 6 samples.

Results

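The auxin response genes of Arabidopsis are described here in quiescent centre (QC) cells of the root, in WT and in the *bravo-2* mutant. The group comprised 50 genes chosen by gene identifier, of 37336 listed in the tables: 15 AUXIN RESPONSE FACTOR (ARF) genes, 29 Aux/IAA genes and the 6 genes of the TIR1/AFB receptors. QC cells were sorted by fluorescence from protoplasted roots of 5-day-old seedlings that expressed GFP under the *WOX5* promoter, and 3 WT and 3 *bravo-2* libraries were sequenced after amplification of the RNA. The *WOX5* promoter is most active in the QC and also in some vascular initials, so that the gate can take in neighbouring cells. *bravo-2* is a knockout allele of *BRAVO*, a MYB transcription factor of the QC and vascular initials, and both genotypes carried the GFP reporter. The labels number the libraries of each genotype 1 to 3 and do not say whether these came from separate sorts or plants, so that the p-values measure the spread between these libraries, which may be partly technical. The sample titles also begin with a digit (the title code) that does not always equal the replicate number. Its meaning is not given, and not every such digit occurs in both genotypes. The study reported the sorting as a confounded factor and corrected its data for it. The main test here made no such correction.

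Auxin acts by removing repressors. Aux/IAA proteins bind ARF transcription factors on the promoters of auxin-responsive genes and recruit TOPLESS co-repressors. Auxin joins an Aux/IAA protein to an F-box receptor of the TIR1/AFB family, which is part of an SCF ubiquitin ligase, and the Aux/IAA protein is degraded. Class A ARFs mostly activate transcription, whereas ARFs of classes B and C are mostly described as repressors. Many Aux/IAA genes are themselves induced by auxin, and an auxin maximum at the root tip is a well-known feature of the QC and its surroundings.

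The sequences that carry this signalling step are shown first, as they divide the members into the groups used below. The core of the degron, the stretch by which the receptor and auxin hold an Aux/IAA protein, is glycine, tryptophan, proline, proline. It was found in the proteins of 23 of the 29 Aux/IAA genes (RefSeq annotation of TAIR10.1) and was not found in those of IAA20, IAA30, IAA31, IAA32, IAA33 and IAA34. The coding bases are printed for the most abundant Aux/IAA gene, IAA17, for its close relative IAA16, and for IAA14, IAA28 and IAA12, whose stabilised forms are known from root and embryo mutants. Capitals mark the codons of the core and of the residue that follows it. They lie in a coding exon at chr1:1136941-1136967 (IAA17, plus strand), chr3:1289730-1289756 (IAA16, minus strand), chr4:8349478-8349504 (IAA14, minus strand), chr5:9033815-9033841 (IAA28, plus strand) and chr1:1241061-1241087 (IAA12, plus strand).
IAA17: gttgtgGGATGGCCACCGGTGagatca
IAA16: gttgtgGGATGGCCACCGGTAcgatct
IAA14: gtggtgGGTTGGCCACCGGTGaggaac
IAA28: gtggtgGGATGGCCGCCGGTGagatca
IAA12: gtggtaGGATGGCCACCAATTgggtta

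Small RNAs also act on the group. miR160 is known to target ARF10, ARF16 and ARF17, miR167 to target ARF6 and ARF8, and miR393 to target TIR1, AFB1, AFB2 and AFB3, while trans-acting siRNAs from TAS3 target ARF2, ARF3 and ARF4. Their mature sequences (RefSeq, TAIR10.1) are given with the seed, bases 2 to 8, in capitals.
miR160a-5p: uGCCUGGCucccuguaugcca
miR167a-5p: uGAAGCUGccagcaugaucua
miR393a-5p: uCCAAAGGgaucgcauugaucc

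The best-matching site in the transcript of each listed target lay in the coding sequence. These sites are shown 5′ to 3′ for 1 target of each microRNA that is described further on. Capitals mark bases that differ from the perfect complement of the microRNA, and each is counted as a mismatch. The count includes a G opposite a U, which can still pair, and the 1 mismatch of ARF17 is of this kind. ARF17 had 1 mismatch to miR160 (chr1:29274189-29274209, plus strand), ARF6 had 4 to miR167 (chr1:10686478-10686498, minus strand) and AFB2 had 2 to miR393 (chr3:9870237-9870258, plus strand). The listed targets had between 1 and 4 mismatches. The microRNAs themselves were not analysed here.
ARF17 site: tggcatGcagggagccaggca
ARF6 site: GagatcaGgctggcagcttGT
AFB2 site: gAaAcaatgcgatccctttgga

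ARFs bind auxin response elements, of which TGTCTC and TGTCGG are 2 well-known forms. Both were searched on both strands in the 300 bases before the annotated start of each gene. At least 1 of them was present before 14 of the 29 Aux/IAA genes (48.3%), 4 of the 15 ARF genes (26.7%) and 1 of the 6 receptor genes (16.7%), against 17.3% of 27443 protein-coding genes. The windows of IAA19 (chr3:5263701-5264000, plus strand), with 3 TGTCTC, and of IAA5 (chr1:5366498-5366797, minus strand), with 1 TGTCTC and 2 TGTCGG, held the most and are printed with the matches in capitals (CCGACA is TGTCGG read on the other strand). No match overlapped another in these windows. Both genes were among the 3 whose level ranged most widely over the libraries, and they were chosen after their values were seen.
IAA19 promoter: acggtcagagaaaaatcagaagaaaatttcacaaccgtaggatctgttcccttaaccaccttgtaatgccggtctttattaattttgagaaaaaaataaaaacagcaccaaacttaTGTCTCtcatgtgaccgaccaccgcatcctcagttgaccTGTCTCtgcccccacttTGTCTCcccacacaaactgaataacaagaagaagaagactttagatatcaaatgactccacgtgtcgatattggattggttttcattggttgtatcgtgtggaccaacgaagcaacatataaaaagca
IAA5 promoter: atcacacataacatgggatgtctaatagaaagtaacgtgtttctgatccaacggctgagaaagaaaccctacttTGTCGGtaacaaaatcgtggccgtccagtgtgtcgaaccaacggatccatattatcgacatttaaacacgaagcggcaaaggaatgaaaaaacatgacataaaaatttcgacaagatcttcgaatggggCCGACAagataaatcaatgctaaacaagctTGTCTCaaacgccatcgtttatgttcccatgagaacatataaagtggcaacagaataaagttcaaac

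A match is a description of these letters. Among the tested Aux/IAA genes, 4 of the 13 that were lowest in *bravo-2* replicate 1 had such an element, as did 3 of the 6 that were highest there and 2 of the other 3.

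The libraries held 10990217 to 14425249 estimated counts, and 3 counts, taken as the smallest level shown, corresponded to 0.214 to 0.282 CPM (counts scaled to the library total, with TMM factors). Reads of amplified RNA are not independent molecules, so such a floor speaks of counting error alone. *BRAVO* stood at 13.3, 37.5 and 60.5 CPM in WT replicates 1, 2 and 3 and at 13.8, 10.3 and 11.8 CPM in *bravo-2* replicates 1, 2 and 3, a log2 fold change of -1.64 ± 0.58 (SE; edgeR, unadjusted p = 0.0244, adjusted p = 1.0; two-sided exact permutation p = 0.2, n = 3 each), or -1.76 without *bravo-2* replicate 1. Its level therefore did not tell WT replicate 1 from the mutant libraries. All 7 QC and stem cell niche markers were detected in each library, with *WOX5*, the homeobox gene that defines the QC, at 80.3 to 444 CPM. Their summed level stood at 597, 1700 and 1709 CPM in WT and at 3104, 982 and 481 CPM in *bravo-2*. *bravo-2* replicate 1 stood apart, holding the highest value of 31.8% of the 15739 genes tested and the lowest value of 33.8%, and its 5 root hair markers summed to 3.71 CPM against 504 to 1781 CPM in the other libraries. *bravo-2* replicate 3 held the highest value of 24.2% and the lowest of 28.7%. Calls, fold changes and medians below are therefore given without *bravo-2* replicate 1 as well. Calls, the Aux/IAA median and the fold changes of some members that moved more are also given without *bravo-2* replicate 3. As these are bulk samples, fewer cells of a type and less RNA per cell cannot be told apart.

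All 3 subfamilies were well represented in the sorted cells. At a mean of at least 4 CPM in a genotype, 40 of the 50 members could be tested, 12 ARF genes, 22 Aux/IAA genes and all 6 receptor genes. Levels of different genes were compared as TPM, which accounts for transcript length. Summed over each subfamily, Aux/IAA transcripts made up 1943 to 3328 TPM, ARF transcripts 174 to 998 TPM and TIR1/AFB transcripts 209 to 295 TPM, and in each library the Aux/IAA sum was the highest of the 3.

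ARF5 (MONOPTEROS, AT1G19850, chr1:6886669-6891404 of TAIR10.1, plus strand), an activating ARF needed to form the embryonic root, led its subfamily with a mean of 212 ± 208 TPM (SD, n = 6). ARF2 (AT5G62000), a repressor, followed at 63.7 ± 31.7 TPM, ARF6 (AT1G30330), which promotes floral organ maturation, at 47.3 ± 30.4 TPM, and ARF7 (AT5G20730), an activator of lateral root formation, at 34.1 ± 3.42 TPM. ARF5 exceeded ARF2 in 6 of 6 libraries, but the ranges of the pair over all libraries overlapped, as did those of every pair of neighbours in the order of each subfamily. Among the Aux/IAA genes the highest were IAA17 (AXR3, AT1G04250, chr1:1136078-1138663, plus strand) at 486 ± 262 TPM, IAA9 (AT5G65670) at 343 ± 26.7 TPM, IAA2 (AT3G23030) at 273 ± 124 TPM and IAA8 (AT2G22670) at 183 ± 109.6 TPM. IAA17 had a higher mean TPM than 98.1% of the genes tested, and IAA9 than 97.0%. The receptor genes lay closer together, from AFB2 (AT3G26810, chr3:9867652-9870782, plus strand) at 78.9 ± 11.9 TPM and AFB1 (AT4G03190) at 58.7 ± 26.9 TPM, through TIR1 (AT3G62980) at 30.5 ± 6.36 TPM and AFB3 (AT1G12820) at 28.6 ± 7.89 TPM, to AFB5 (AT5G49980) at 26.5 ± 6.93 TPM.

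**Figure D1:**
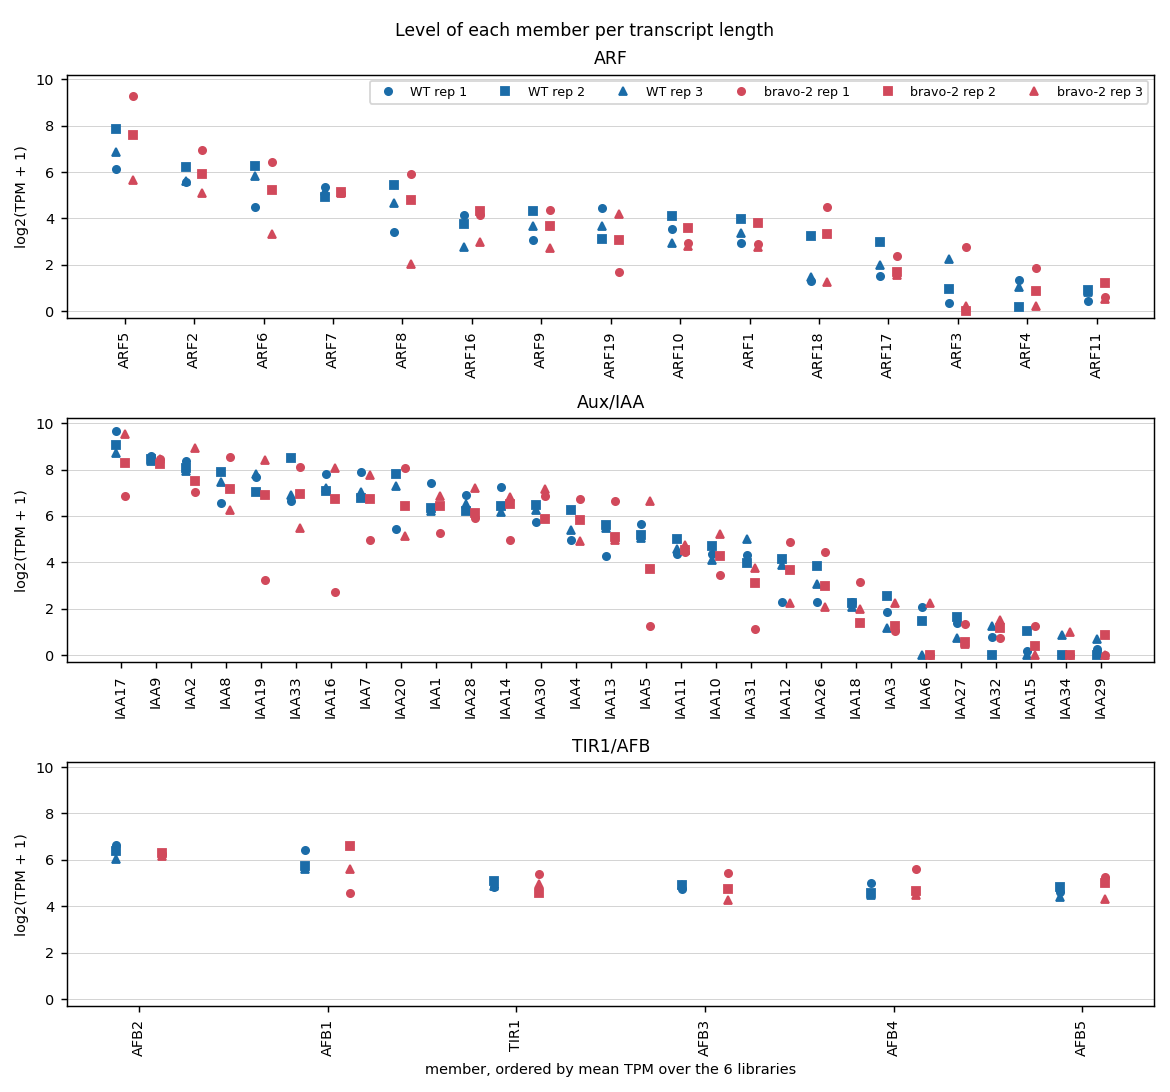
Level of each of the 50 members in the 6 libraries, as log2(TPM + 1), with members ordered by mean TPM within each subfamily; blue marks WT, red marks bravo-2, and the marker shape gives the replicate. ARF5 and IAA17 head their subfamilies and spread widely, whereas IAA9 and ARF7 stay within 299 to 378 TPM and 29.2 to 39.8 TPM.

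The 10 members below the filter were ARF3, ARF4, ARF11, IAA3, IAA6, IAA15, IAA27, IAA29, IAA32 and IAA34. ARF3 (ETTIN), a tasiR-ARF target, had 6, 15 and 83 counts in WT and 95, 0 and 4 counts in *bravo-2*. ARF4, another such target, had 47, 3 and 32 counts in WT and 63, 20 and 5 in *bravo-2*. Neither gene separated the genotypes, and the precursor TAS3 had 14, 55 and 25 counts against 28, 23 and 9. The lowest of the 10 was IAA29 by mean TPM, with 2, 0 and 7 counts in WT and 0, 7 and 0 counts in *bravo-2*.

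No member passed the test between *bravo-2* and WT. With edgeR's quasi-likelihood test and Benjamini-Hochberg adjustment over all genes, 0 of 40 had an adjusted p under 0.05, against 0 of 15739 genes (0.0%), and 0 members had one with DESeq2 or without *bravo-2* replicate 1. Without adjustment, a p under 0.05 was reached by 0 members against 0.794% of all genes (125 of 15739), and again by 0 members without *bravo-2* replicate 1, where 345 of 15606 genes reached it. The WT and *bravo-2* libraries did not overlap for 0 members against 3.67% of all genes (578 of 15739). A log2 fold change below 0, that is lower in *bravo-2*, was fitted for 25 of the 40 members, where 45.7% of all genes had one, and it was again 25 of 40 without *bravo-2* replicate 1, against 7846 of 15475 genes. The median was -0.12 over the members and 0.039 over all genes (-0.056 and -0.008 without that library). By subfamily, 8 of 12 ARF genes were lower (median -0.16, or -0.17 without *bravo-2* replicate 1), 13 of 22 Aux/IAA genes (-0.07 and -0.02) and 4 of 6 receptor genes (-0.06 and -0.06). Without *bravo-2* replicate 3, 0 members were called, while 2 members (IAA5, -2.71, and IAA31, -2.46) and 873 of 15873 genes had an unadjusted p under 0.05, and the Aux/IAA median became -0.58. With 3 libraries against 3 the two-sided exact permutation test cannot go below p = 0.1, and the lowest value for a tested member was p = 0.2 for IAA31.

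**Figure D2:**
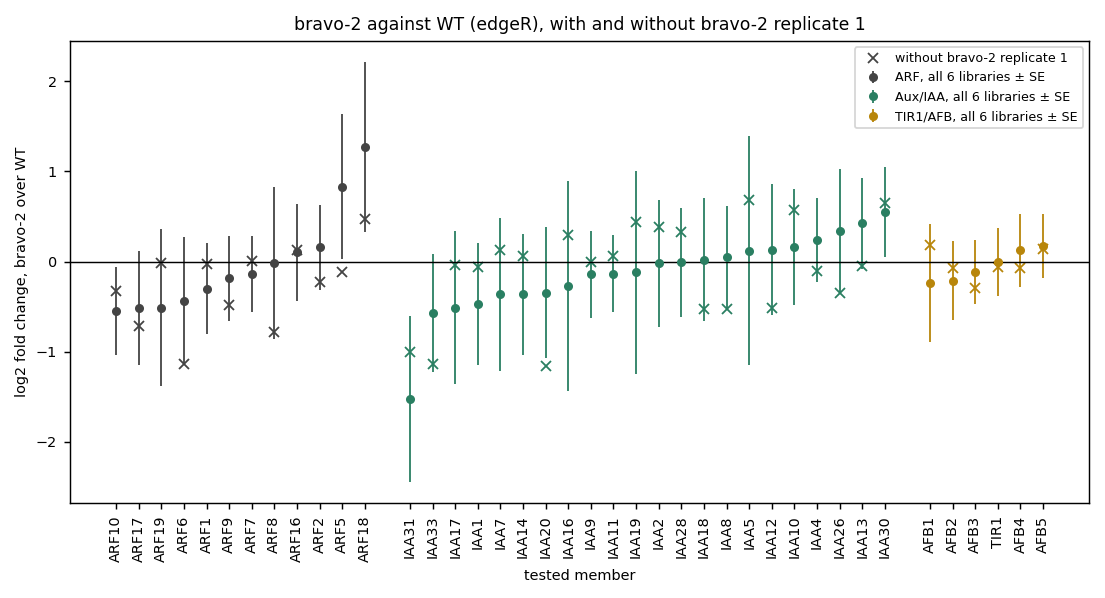
Log2 fold change of each tested member, bravo-2 over WT, by edgeR; points and bars are the fit to all 6 libraries with its standard error, and crosses are the fit without bravo-2 replicate 1. Values run from -1.52 (IAA31) to 1.27 (ARF18), and for many members the cross lies on the other side of 0.

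The size of the fitted log2 fold change exceeded the SD of log2 CPM within genotypes for 2 of the 40 tested members, ARF10 and IAA31, and was smaller for the rest. ARF5 stood at 180.3, 496 and 266 CPM in WT and at 1094, 437 and 144 CPM in *bravo-2*, so that both extremes were mutant libraries. The log2 fold change was 0.83 ± 0.81 and became -0.12 without *bravo-2* replicate 1. ARF6 stood at 66.3, 189.6 and 152 CPM in WT and at 177, 94.1 and 30.1 CPM in *bravo-2* (-0.44 ± 0.71, and -1.13 without *bravo-2* replicate 1). The related ARF8 (AT5G37020), also a miR167 target and chosen after its values were seen, ran from 8.66 CPM in *bravo-2* replicate 3 to 105 CPM in *bravo-2* replicate 1. These 3 activators were lowest in *bravo-2* replicate 3 and lower in WT replicate 1 than in the other WT libraries, as was the summed level of the QC markers.

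ARF19 (AT1G19220), a partner of ARF7 in lateral root formation and also a class A gene, followed another order. It stood at 69.9, 20.3 and 35.9 CPM in WT and at 4.93, 20.6 and 63.0 CPM in *bravo-2*. The log2 fold change was -0.51 ± 0.88 (-0.01 without *bravo-2* replicate 1 and -1.74 without *bravo-2* replicate 3). ARF7 hardly moved, at 137, 80.1 and 108 CPM in WT and at 77.4, 97.6 and 121 CPM in *bravo-2* (-0.13 ± 0.42, or 0.01 without that library). Within this pair of close relatives, TPM of ARF7 over that of ARF19 was 1.91, 3.85 and 2.93 in WT and 15.3, 4.62 and 1.88 in *bravo-2*. ARF7 was the higher of the pair in 6 of 6 libraries.

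Among class B genes, ARF2 stood at 134, 166 and 123 CPM in WT and at 232, 139.8 and 101 CPM in *bravo-2* (0.16 ± 0.47, or -0.23 without *bravo-2* replicate 1). ARF18 (AT3G61830) had the highest fitted fold change of all members, 1.27 ± 0.94 (0.48 without *bravo-2* replicate 1), from 2.61, 12.0 and 2.84 CPM in WT against 26.1, 13.5 and 2.73 CPM in *bravo-2*. It was chosen after its values were seen, and its lowest *bravo-2* library lay within the WT range. ARF1 and ARF9, the other 2 tested genes of the class, spanned 7.86 to 21.6 CPM and 13.9 to 34.9 CPM.

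The class C genes ARF10 (AT2G28350), ARF16 (AT4G30080) and ARF17 (AT1G77850), the miR160 targets, act as repressors, and ARF10 and ARF16 are known for their part in root cap and columella differentiation. ARF10 stood at 22.9, 27.5 and 12.6 CPM in WT and at 9.57, 19.6 and 13.7 CPM in *bravo-2* (-0.55 ± 0.49, or -0.33 without *bravo-2* replicate 1). ARF16 stood at 31.9, 19.03 and 10.14 CPM in WT and at 21.1, 30.1 and 14.3 CPM in *bravo-2* (0.10 ± 0.54, or 0.13). ARF17 was the lowest of the 3, at 3.43, 10.3 and 5.03 CPM in WT and at 5.43, 3.71 and 3.95 CPM in *bravo-2* (-0.52 ± 0.64, or -0.71). The genotypes overlapped for each. Root cap markers, 4 genes, summed to 158, 156 and 96.6 CPM in WT and to 102, 63.4 and 71.5 CPM in *bravo-2*, and their part in these values was not tested.

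Most of the Aux/IAA genes had an extreme value in *bravo-2* replicate 1. Of the 22 tested, 13 had their lowest value in that library and 6 their highest (59.1% and 27.3%, against 33.8% and 31.8% of all genes). All of these 19 but IAA31 encode the degron core. Of the 4 tested genes without the core, 1 was lowest there and 0 were highest, the other 3 being IAA20, IAA30 and IAA33.

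**Figure D3:**
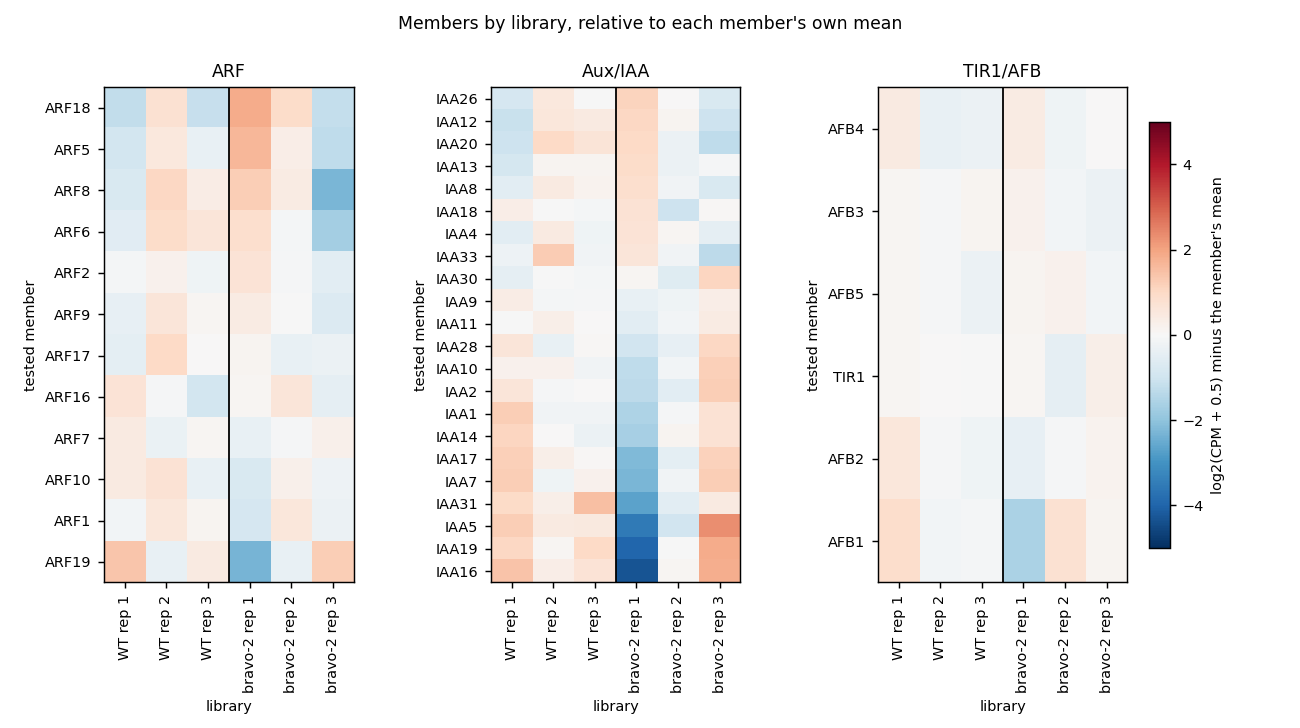
Level of each tested member by library as log2(CPM + 0.5) minus the mean of that member over the 6 libraries, on a scale from blue (lower) to red (higher); members are ordered within each subfamily by their value in bravo-2 replicate 1, and the black line separates WT from bravo-2. IAA16, IAA19 and IAA5 are lowest in bravo-2 replicate 1 and highest in bravo-2 replicate 3, while ARF5, ARF8 and IAA20 are high in the former and low in the latter.

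IAA17 stood at 775, 414 and 357 CPM in WT and at 73.4, 246 and 763 CPM in *bravo-2*. WT replicate 1 and *bravo-2* replicate 3 were the highest, and the log2 fold change of -0.51 ± 0.85 became -0.04 without *bravo-2* replicate 1. Without *bravo-2* replicate 3 it was -1.70. IAA2 stood at 254, 161 and 166 CPM in WT and at 66.4, 115 and 392 CPM in *bravo-2* (-0.02 ± 0.71, or 0.38 without *bravo-2* replicate 1 and -1.1 without *bravo-2* replicate 3). IAA14 (SOLITARY-ROOT, AT4G14550), whose stabilised form blocks lateral root formation, showed the same low library, at 133.9, 63.7 and 51.7 CPM in WT and at 19.8, 69.8 and 104 CPM in *bravo-2* (-0.36 ± 0.67, or 0.06, and -0.91 without *bravo-2* replicate 3). IAA28 (AT5G25890), a repressor of lateral root founder cells, stood at 121, 60.3 and 83.1 CPM in WT and at 40.6, 59.6 and 162 CPM in *bravo-2* (-0.01 ± 0.61, or 0.33). In all 4 genes both the lowest and one of the 2 highest libraries were *bravo-2*.

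The widest ranges of all tested members, chosen after their values were seen, were those of IAA5 (AT1G15580), IAA16 (AT3G04730) and IAA19 (AT3G15540). IAA5 stood at 26.2, 15.2 and 15.7 CPM in WT and at 0.50, 5.39 and 56.3 CPM in *bravo-2*, a ratio of 113 between its highest and lowest library. IAA16 stood at 338, 161 and 201 CPM in WT and at 5.79, 133 and 440.3 CPM in *bravo-2*, a ratio of 76.1. IAA19 (MASSUGU2), an auxin-induced repressor of hypocotyl bending and lateral root formation, stood at 148, 75.5 and 143 CPM in WT and at 4.07, 70.3 and 263 CPM in *bravo-2*, a ratio of 64.5. In these genes the 3 WT libraries lay between the extremes of *bravo-2*. Their fold changes were 0.12 ± 1.27, -0.27 ± 1.16 and -0.12 ± 1.13, and 0.69, 0.29 and 0.44 without *bravo-2* replicate 1. Without *bravo-2* replicate 3 they were -2.71, -1.76 and -1.73.

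IAA8 was among the members that were high in *bravo-2* replicate 1. It stood at 104, 204 and 169.7 CPM in WT and at 273, 133 and 88.95 CPM in *bravo-2* (0.05 ± 0.56, or -0.53 without *bravo-2* replicate 1). IAA12 (BODENLOS, AT1G04550), the Aux/IAA partner of ARF5 in embryonic root formation, was far lower, at 3.84, 13.4 and 12.4 CPM in WT and at 18.6, 9.77 and 4.05 CPM in *bravo-2* (0.13 ± 0.72, or -0.52). Its level per length was 13.1 TPM on average, against 212 TPM for ARF5, and its close relative IAA13 had 45.5 TPM. IAA4, IAA13, IAA18 and IAA26 were also highest in *bravo-2* replicate 1.

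IAA9, whose counterpart in tomato restrains fruit set, was the steadiest Aux/IAA gene, at 533, 392 and 403 CPM in WT and at 322, 354 and 527 CPM in *bravo-2*. Its fold change was -0.14 ± 0.49 (-0.01 without *bravo-2* replicate 1), and its highest library exceeded the lowest by 1.66-fold. IAA11 was nearly as steady, from 11.2 to 22.1 CPM. TPM of IAA8 over that of IAA9 accordingly ran from 0.212 in *bravo-2* replicate 3 to 1.07 in *bravo-2* replicate 1.

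Aux/IAA genes without the degron core encode proteins that auxin does not destabilise in the usual way. IAA33 (AT5G57420), known to act in the distal root with ARF10 and ARF16, stood at 51.4, 149.7 and 54.9 CPM in WT and at 94.5, 53.4 and 24.5 CPM in *bravo-2* (-0.57 ± 0.65, or -1.13 without *bravo-2* replicate 1). IAA30 (AT3G62100) stood at 32.2, 43.6 and 42.2 CPM in WT and at 48.1, 29.5 and 94.9 CPM in *bravo-2* (0.55 ± 0.50, or 0.65). Its close relative IAA20 (AT2G46990), chosen after its values were seen, ran the other way, from 22.3 CPM in *bravo-2* replicate 3 to 109.5 CPM in WT replicate 2. TPM of IAA20 over that of IAA30 was 0.827, 2.53 and 2.06 in WT and 2.28, 1.51 and 0.237 in *bravo-2*.

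IAA31 (AT3G17600), which also lacks the core, had the most negative fold change of all members and was likewise chosen after its values were seen. It stood at 11.9, 7.24 and 17.4 CPM in WT and at 0.50, 3.96 and 8.28 CPM in *bravo-2*, so that *bravo-2* replicate 3 lay above WT replicate 2. The log2 fold change was -1.52 ± 0.92 (edgeR, unadjusted p = 0.14, adjusted p = 1.0) and -1.001 without *bravo-2* replicate 1. It kept its sign when any 1 library was left out (-2.46 to -1.001), as did ARF10 and ARF18, among others.

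**Figure D4:**
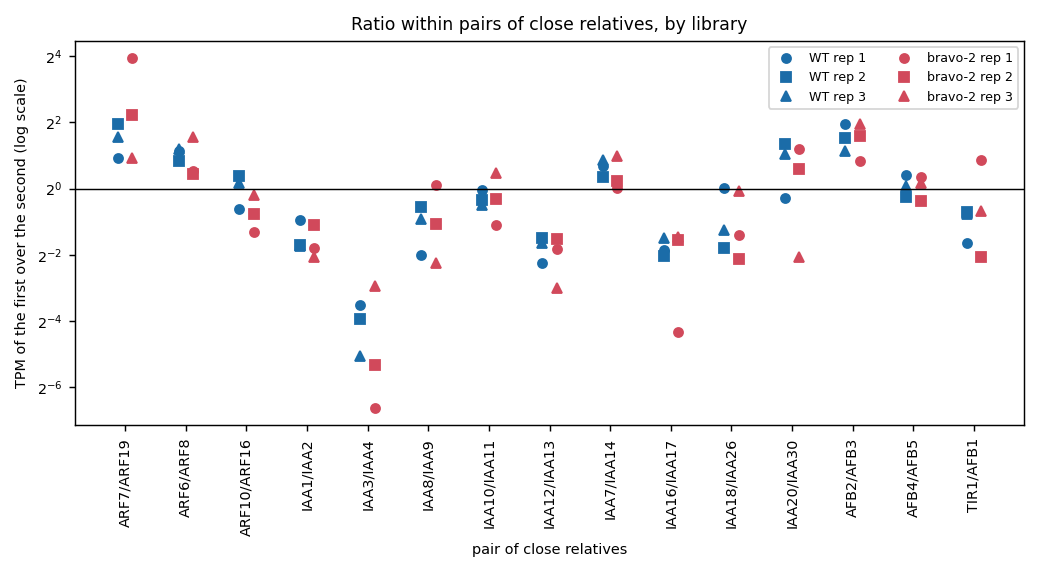
Ratio of TPM within 15 pairs of close relatives, first gene over second, on a log2 axis, for each library; the line marks equal levels. ARF7 over ARF19 runs from 1.88 to 15.3, IAA16 over IAA17 from 0.0498 to 0.364 with the lowest value in bravo-2 replicate 1, and AFB4 over AFB5 only from 0.778 to 1.33.

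The receptors were the steadiest subfamily. The SD of log2 CPM within genotypes had a median of 0.319 over the 6 receptor genes, 0.617 over the ARF genes and 0.938 over the Aux/IAA genes, against 0.740 over all genes tested. TIR1, the first auxin receptor described, stood at 55.6, 52.5 and 51.9 CPM in WT and at 56.1, 38.2 and 64.9 CPM in *bravo-2* (-0.01 ± 0.38, or -0.06 without *bravo-2* replicate 1). AFB2 stood at 209.5, 137 and 122 CPM in WT and at 106, 137 and 161 CPM in *bravo-2* (-0.21 ± 0.44, or -0.07). AFB3 stood at 44.2, 39.1 and 45.2 CPM in WT and at 48.0, 36.7 and 33.4 CPM in *bravo-2* (-0.12 ± 0.36, or -0.29). These 3 receptors overlapped between the genotypes and stayed within a narrow band. AFB4 and AFB5, known as receptors of picolinate auxins, spanned 33.0 to 58.3 CPM and 35.0 to 50.3 CPM.

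AFB1, a receptor with a known part in rapid root growth responses, was the exception. It stood at 152, 74.2 and 76.8 CPM in WT and at 26.8, 140.1 and 89.8 CPM in *bravo-2* (-0.24 ± 0.65, or 0.19 without *bravo-2* replicate 1). TIR1 over AFB1 in TPM was 1.83 in *bravo-2* replicate 1 and 0.238 to 0.63 elsewhere. Counts of AFB1, AFB3 and AFB4 were fractional in every library, which RSEM gives where reads are shared with other genes, so their split is less certain, as it is for IAA3 and IAA32. Genes that overlap others on the opposite strand, such as ARF5, ARF7, IAA5, IAA9 and AFB1, can hold reads of their neighbours, since use of the strand is not given in the sources used here.

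The ratio of ARF to Aux/IAA transcripts also followed the library. Its ARF sum includes the genes of classes B and C. ARF over Aux/IAA in summed TPM was 0.0824, 0.184 and 0.136 in WT and 0.477, 0.219 and 0.0523 in *bravo-2*. ARF5 alone made up 26.9% to 61.2% of the ARF sum, and IAA17 5.45% to 26% of the Aux/IAA sum. Both extremes of the ARF to Aux/IAA ratio were mutant libraries, and the WT range lay within the *bravo-2* range.

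Marker genes of other root cell types also differed between the libraries, and not all in the same order. The 23 Aux/IAA genes with the core summed to 2884, 1845 and 1881 CPM in WT and to 1042, 1447 and 3253 CPM in *bravo-2*. Root hair markers (RHD6, RSL1, RSL4, EXPA7 and COBL9, all 5 tested) summed to 1781, 713 and 1066 CPM in WT and to 3.71, 504 and 1434 CPM in *bravo-2*. Both sums were highest in WT replicate 1 and *bravo-2* replicate 3 and lowest in *bravo-2* replicate 1. RSL1 departed from this order, being highest in *bravo-2* replicate 2 (11.3 CPM) and lowest in WT replicate 2 (0.253 CPM). The 3 endodermis markers summed to 149.5, 7.58 and 146 CPM in WT and to 8.07, 13.5 and 139 CPM in *bravo-2*. This sum was lowest in WT replicate 2, as was the marker CASP1. The other markers differed, CASP2 being lowest in *bravo-2* replicate 1 and MYB36 in *bravo-2* replicate 2. The 2 non-hair epidermis markers summed to 69.5, 19.2 and 53.7 CPM in WT and to 4.79, 60.7 and 48.0 CPM in *bravo-2*. The 4 vascular markers summed to 27.6, 80.6 and 31.2 CPM in WT and to 44.4, 28.4 and 16.5 CPM in *bravo-2*. The sum was highest in WT replicate 2, where ATHB8 alone had 79.0 CPM. PXY, APL and VND7 were highest in other libraries and at 0 in at least 1 library each. The 5 class A ARF genes summed to 479.9, 877 and 620.4 CPM in WT and to 1459, 709 and 367 CPM in *bravo-2*. This sum was highest and lowest in the same libraries as that of the QC markers. ARF5 alone held 1094 CPM of it in *bravo-2* replicate 1, where ARF7 and ARF19 had their lowest values, and ARF6 was highest in WT replicate 2. Of the QC markers, PLT1, PLT2 and SCR were highest and lowest in the same libraries as their sum. *WOX5* and AGL42 were lowest in WT replicate 1, SHR in *bravo-2* replicate 1 and *BRAVO* in *bravo-2* replicate 2. SHR and *BRAVO* were highest in WT replicate 3. The part of these markers in the levels of the members was not tested.

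**Figure D5:**
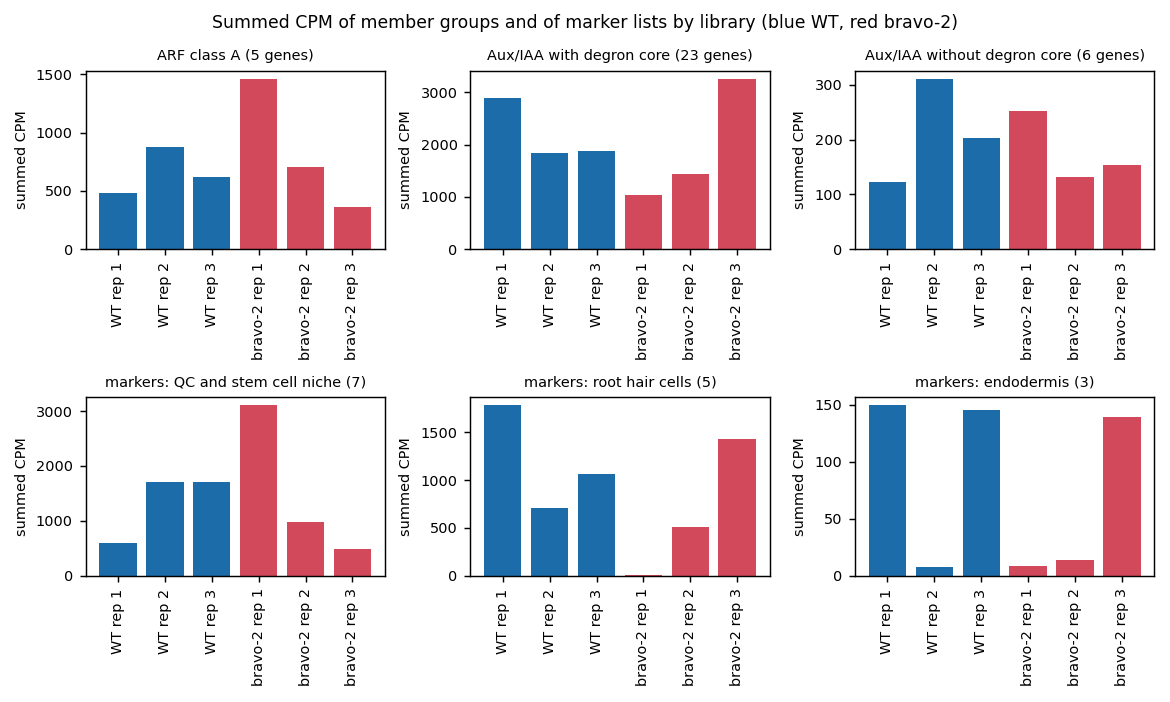
Summed CPM by library of class A ARF genes, of Aux/IAA genes with and without the degron core, and of markers for the QC and stem cell niche, root hair cells and endodermis; blue bars are WT and red bars bravo-2. The class A ARF sum peaks with that of the QC markers in bravo-2 replicate 1 (1459 and 3104 CPM), although the QC markers SHR and BRAVO are highest in WT replicate 3. The sums of Aux/IAA genes with the core and of root hair markers are lowest there (1042 and 3.71 CPM), although the root hair marker RSL1 is lowest in WT replicate 2. ARF5 holds 1094 CPM of the class A peak, while ARF7 and ARF19 are at their lowest in that library.

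Other genes of the pathway gave 0 calls too. Of 8 genes of the SCF ligase and its neddylation (such as ASK1, CUL1, AXR1 and CAND1), 7 had a higher and 1 a lower fitted value in *bravo-2*, with a median log2 fold change of 0.15 (0.17 without *bravo-2* replicate 1). The TOPLESS co-repressors, 5 genes, had 4 higher and 1 lower (0.17, or 0.02). Of 14 auxin-responsive genes, 8 were tested, with 1 higher and 7 lower (-0.24, or -0.31), where 45.7% of all genes tested were lower. GH3.3, which conjugates auxin to amino acids, had the most negative value of these 8 genes, -1.11 ± 0.88 (-0.73 without *bravo-2* replicate 1), from 33.2, 5.56 and 25.2 CPM in WT against 3.79, 4.80 and 21.1 CPM in *bravo-2*. Its genotypes overlapped. TMO7, a target of ARF5, stood at 44.8, 107 and 115 CPM in WT and at 131, 92.9 and 28.5 CPM in *bravo-2* (-0.08 ± 0.65, or -0.55), and like ARF5 was highest in *bravo-2* replicate 1 and lowest in *bravo-2* replicate 3. TMO5, another target of ARF5, was below the filter and went otherwise, at 2.37, 3.62 and 5.18 CPM in WT and at 0.429, 0.253 and 1.22 CPM in *bravo-2*. Its genotypes did not overlap, from 29, 43 and 71 counts against 6, 3 and 13, as was so for 3.67% of all genes tested (578 of 15739). Any gene without overlap has a two-sided exact permutation p = 0.1, the smallest that n = 3 each allows, so that this p-value adds nothing. GH3.3, TMO7 and TMO5 were chosen after their values were seen.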

How the data were processed

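The authors trimmed reads with cutadapt, mapped them to TAIR10 with STAR and estimated gene counts by RSEM from Araport11 transcripts (versions not given in the sources used here). The deposited tables give, per gene and library, the estimated count (RSEM's expected count, neither normalized nor batch corrected), TPM and an effective length, deposited per gene by the authors, which served for a level in CPM per kb. RSEM divides reads that match several genes, and 83% of the values above 0 were whole. NOISeq, ARSyN and NOISeqBIO, used in the study after counting, were not run. ARSyN was the study's correction for the batch effect of sorting.

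Counts were rounded, genes averaging 4 CPM or more in a genotype kept (15739 of 37336), and *bravo-2* set against WT in edgeR's quasi-likelihood test with TMM, genotype as the only term and Benjamini-Hochberg adjustment over all genes (threshold 0.05). The standard error is that of the log2 fold change, derived from the test's F value. Single members were also put to an exact permutation test (two-sided) on log2(CPM + 0.5). Libraries held 10990217 to 14425249 counts. Members and lists were chosen with earlier results of these data known. Values in every library were given for the 4 highest members of each subfamily by mean TPM, for any with an unadjusted p-value under 0.05 or without overlap (none), and for members with a known root role; others are named as chosen after their values were seen. Of 54 pathway and marker genes listed, 2 whose names were not found in the reference were dropped. These were RBX1A of the SCF ligase (log2 fold change -0.001) and DAO1, an auxin-responsive gene (0.124). Sequences come from the RefSeq annotation of TAIR10.1, which held all 50 members; the tables carry no coordinates. Alternatives were upper quartile scaling, DESeq2, 2 other filters, limma on log2(CPM + 1), blocks by replicate number or title code, 1 surrogate variable, CPM per kb, a pseudocount of 4 and leaving out each library. The fits were tested on simulated data. Versions were edgeR 4.0.16, DESeq2 1.42.0, sva 3.50.0 and limma 3.58.1 under R 4.3.3, and scipy 1.17.1, numpy 2.4.6, matplotlib 3.10.9 and pandas 2.3.3 under Python 3.11.15.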

Additional observations from a re-analysis of the deposited data

How the results depend on the processing

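The count of members called was 0 under every alternative run, and without each library in turn (0 to 0). At an unadjusted p-value under 0.05 it was 0 in every fit except that with 1 surrogate variable, with 5 (ARF6, ARF8, IAA20, IAA31 and IAA33, all lower in *bravo-2*), and that without *bravo-2* replicate 3, with 2 (IAA5 and IAA31). Over all genes, 13 were called by DESeq2 and 1 with all genes of at least 1 count, against 0 by edgeR, 0 in the other alternatives and 0 to 0 without each library; at an unadjusted p-value under 0.05 the surrogate variable gave 1144 genes, the fit without *bravo-2* replicate 3 873, that without *bravo-2* replicate 1 345, all genes of at least 1 count 325, DESeq2 195 and limma 154, against 125. The causes were not tested. The labels do not say that same-numbered libraries were paired, and their deviations did not go together (r = -0.722, -0.069 and -0.434 over genes); the replicate block called 0 members and 0 genes, with 52 at an unadjusted p-value under 0.05. Without each library in turn, the median fold change was -0.205 to 0.073 for ARF genes, -0.578 to 0.154 for Aux/IAA genes (-0.578 without *bravo-2* replicate 3) and -0.101 to 0.147 for receptor genes (0.147 without WT replicate 1). With 1 surrogate variable, the sign turned for ARF2 (-0.13), ARF5 (-0.050), ARF7 (0.009), IAA2 (0.080), IAA4 (-0.037), IAA5 (-0.69), IAA8 (-0.38), IAA12 (-0.44), IAA18 (-0.15), IAA26 (-0.20), IAA28 (0.17), TIR1 (0.022) and AFB1 (0.091). With DESeq2, the sign turned for IAA2 (0.036), IAA28 (0.027) and TIR1 (0.004). With limma on log2(CPM + 1), the sign turned for IAA5 (-1.25), IAA8 (-0.053), IAA10 (-0.15) and IAA18 (-0.11). With the replicate block, the sign turned for IAA5 (-1.59), IAA8 (-0.082), IAA10 (-0.19), IAA12 (-0.002) and IAA18 (-0.17). With the title code block, the sign turned for ARF16 (-0.50), IAA5 (-1.78), IAA10 (-0.29), TIR1 (0.16) and AFB5 (-0.004). With upper quartile scaling, the sign turned for ARF8 (0.11) and TIR1 (0.044). Leaving out 1 library turned the sign of 33 members, whose ranges were ARF2 -0.23 to 0.40, ARF5 -0.12 to 1.32, ARF6 -1.13 to 0.009, ARF7 -0.31 to 0.10, ARF8 -0.78 to 0.51, ARF9 -0.48 to 0.12, ARF16 -0.22 to 0.61, ARF17 -0.77 to 0.046, ARF19 -1.74 to 0.10, IAA1 -1.09 to 0.19, IAA2 -1.10 to 0.38, IAA4 -0.11 to 0.57, IAA5 -2.71 to 0.69, IAA7 -1.45 to 0.20, IAA8 -0.53 to 0.36, IAA9 -0.39 to 0.045, IAA10 -0.72 to 0.57, IAA11 -0.43 to 0.062, IAA12 -0.52 to 0.54, IAA13 -0.055 to 0.65, IAA14 -0.91 to 0.19, IAA16 -1.76 to 0.29, IAA18 -0.52 to 0.40, IAA19 -1.73 to 0.44, IAA20 -1.16 to 0.063, IAA26 -0.35 to 0.73, IAA28 -0.82 to 0.33, IAA30 -0.013 to 0.86, IAA33 -1.14 to 0.12, TIR1 -0.18 to 0.18, AFB1 -0.80 to 0.20, AFB2 -0.36 to 0.088 and AFB4 -0.070 to 0.46. In all, 32 values changed sign and 286 did not under the other settings, as did 57 and 183 when a library was left out. By CPM per kb of effective length, 11 of the 12 highest members were those by TPM.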
